A study of Drosophila melanogaster with 2 samples.

Results

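The mitochondrial ribosomal protein genes of Drosophila melanogaster were taken as all protein-coding genes whose symbol begins with mRpL or mRpS, which gave 73 of the 13945 protein-coding genes annotated on the chromosome arms. Of these, 47 encode proteins of the large subunit of the mitochondrial ribosome and 26 proteins of the small subunit. The genes were followed through peak lists of the transcription factor Onecut. Chromatin came from whole embryos aged 0 to 24 hours, in 2 biological replicates of 1 fly strain that carries an insertion expressing Onecut fused to enhanced green fluorescent protein (eGFP). Both replicates carried the same fusion, were precipitated with an antibody against GFP, and form 1 group. The design therefore holds no comparison between conditions, and a mixed collection of all embryonic stages and tissues cannot say in which cells a site was occupied. The 73 members were selected on their names alone, and the peaks described for them on the measured positions of their summits. The group was also chosen with earlier results of these data known. The counts and signals below are therefore a description and carry no test.

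Mitochondrial ribosomes translate the few proteins encoded by mitochondrial DNA, which are core subunits of the respiratory chain. All their proteins are encoded in the nucleus, made in the cytoplasm and imported, so their supply depends on nuclear promoters. Onecut belongs to a family with a cut domain and a homeodomain, is known in the fly for its expression in neurons, and binds in its mammalian relatives to cores of the form ATCGAT or ATTGAT.

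The sequences at or close to the member summits differ from one another, and a summit does not show which bases were bound. The summit is the base that a peak list gives as the peak's highest point. The first 6 runs are those of the members with the highest signal off the arm whose sequence is not shown, and the other 4 are shown for a short element or a shared start region. All are from the Release 6 assembly (dm6), on the strand of the member and 5′ to 3′, and are centred on the summit unless stated. Runs are cut to 29 bases where a longer one would take in more untranslated sequence. Capitals mark ATCGAT, or ACACTG or ACAGTG, on either strand. The first, for mRpS23, is chr2L:13835418-13835518 on the minus strand, and the second, for mRpS10, is chr3R:15229469-15229569 on the plus strand.
mRpS23: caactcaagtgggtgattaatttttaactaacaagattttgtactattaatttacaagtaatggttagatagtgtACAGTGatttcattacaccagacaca
mRpS10: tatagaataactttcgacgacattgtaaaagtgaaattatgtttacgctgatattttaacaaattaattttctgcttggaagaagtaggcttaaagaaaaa
The next 4 are mRpL23 (chr3L:2373584-2373612, minus strand), mRpL35 (chr3R:22022798-22022898, plus strand), mRpL47 (chr3R:9516037-9516065, minus strand) and mRpL24 (chr2L:4945463-4945563, minus strand).
mRpL23: attttatagttacagcgtaataacttaaa
mRpL35: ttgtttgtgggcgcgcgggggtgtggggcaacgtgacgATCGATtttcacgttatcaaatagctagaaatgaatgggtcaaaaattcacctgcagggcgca
mRpL47: tagcactgagcgaagcgcaactagagctg
mRpL24: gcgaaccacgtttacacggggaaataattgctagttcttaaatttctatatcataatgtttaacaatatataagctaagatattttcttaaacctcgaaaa
The last 4 are mRpS18C (chr3R:30423863-30423891, plus strand), mRpL40 (chr3R:11407788-11407888, plus strand), mRpS24 (chr3R:24163731-24163831, minus strand) and mRpS11 (chr3R:17072723-17072751, plus strand). The run of mRpS18C is centred on its pair of elements, and its summit lies just outside the run.
mRpS18C: gcgaactaATCGATttATCGATggttgca
mRpL40: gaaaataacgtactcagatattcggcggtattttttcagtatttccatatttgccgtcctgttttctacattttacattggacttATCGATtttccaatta
mRpS24: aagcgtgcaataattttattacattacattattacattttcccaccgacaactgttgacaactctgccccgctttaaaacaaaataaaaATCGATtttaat
mRpS11: aACACTGcCAGTGTtgccagactggcagt
Only 1 of the 6 strongest members shown here, mRpL35, had ATCGAT in its run.

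A minority of the mitochondrial ribosomal protein genes had an Onecut-eGFP summit. The main list was the authors' conservative list from both replicates, cut at an irreproducible discovery rate (IDR, a measure of how well a peak keeps its rank between replicates) of 0.01. In it, 25 of 73 members had a summit between 1000 bp upstream of the gene and its end (34.2%, 95% Wilson interval 24.4 to 45.7), beside 31.3% of all protein-coding genes. The members are short, and 70 of 73 span at most 2000 bp. All 25 with a summit were among those 70 (35.7%), beside 17.1% of all protein-coding genes of that length. Within 500 bp of an annotated transcription start site (TSS) there was a summit at 22 members (30.1%, 20.8 to 41.4), beside 23.4% of all genes. The intervals cover counting error only, and neighbouring genes can share a peak.

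Both subunits were represented. The large subunit had 15 of 47 members with a summit (31.9%, Wilson interval 20.4 to 46.2) and the small subunit 10 of 26 (38.5%, 22.4 to 57.5), and these intervals overlap. For the genes of the cytoplasmic ribosome, taken by symbol with paralogs included, 76 of 93 had a summit in the same window and 73 of 93 within 500 bp of a start (78.5%, 69.1 to 85.6). The median signal of the highest promoter peak was 313.6 for those 73 cytoplasmic genes and 124.5 for the 22 mitochondrial ones, with middle 50% ranges of 207.5 to 446.8 and 99.1 to 381.7. The size of this gap varied with the list. In the thresholded list of replicate 1 the medians were 145.6 for 72 cytoplasmic genes and 135.3 for 13 mitochondrial ones. In that of replicate 2 they were 176.3 for 69 and 114.2 for 18. The pooled thresholded list gave 313.8 for 72 and 120.7 for 25. The ranked list of both replicates gave 287.4 for 81 and 74.1 for 50. Without a threshold the medians were 131.7 and 35.0 in replicate 1, and 145.6 and 42.3 in replicate 2. In the main list the highest mitochondrial peak, at 1484, lay above the highest cytoplasmic one, at 799.9.

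**Figure D1:**
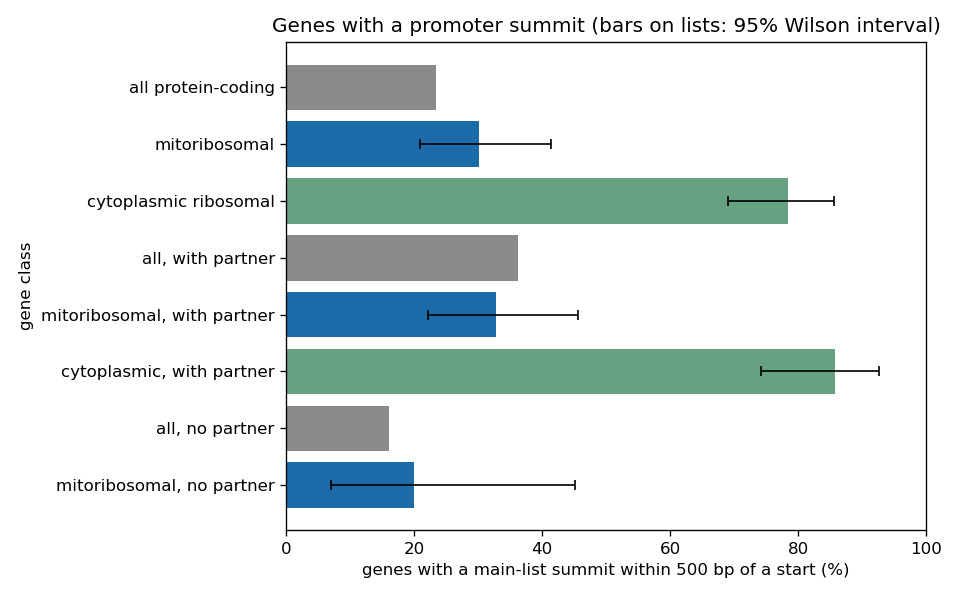
Share of genes (x axis, %) with a main-list summit within 500 bp of a start, for all protein-coding genes and for the genes of the mitochondrial and the cytoplasmic ribosome, in all and split by whether a divergent partner starts within 1000 bp; black bars are 95% Wilson intervals. The mitochondrial bars (30.1%, 32.8% and 20%) have intervals that take in or lie near the shares of all genes in the same class (23.4%, 36.2% and 16.1%), while the cytoplasmic bars stand at 78.5% and 85.7%.

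The signal of the member peaks covered nearly the whole range of the list. The deposited signal has no stated unit and is compared only within a list. The highest peak of each of the 25 members ran from 19.9 to 1484 with a median of 128.2, beside a median of 149.0 over all 6747 peaks on the arms. Below that list median lay 13 of the 25, and 4 lay in the top 10%. Above a signal of 200 were 11 members, the weakest at 251.8, and below it 14, the strongest at 163.6. Wider gaps lay elsewhere, as between mRpL23 at 816.1 and mRpS10 at 1431.7. The cut at 200 therefore serves description only and is not a natural break. Over the whole list 33.7% of peaks were above 200.

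mRpS23, a small subunit protein with no bacterial counterpart, had the strongest peak, with a signal of 1484 and rank 44 of 6755. In the ranked lists of the single replicates its signal was 723.9 in replicate 1 and 748.0 in replicate 2. mRpL41, a large subunit protein that is also particular to mitochondria, followed with 1448 and rank 47. Its replicate signals were 809.2 and 657.5. mRpS10, the counterpart of the bacterial small subunit protein of that name, had 1431.7 and rank 52. Its replicate signals were 792.0 and 647.1. These 3 members were in the top 1% of the main list, and their summits in the replicates lay within 8 bp of the main summit. mRpL23, whose bacterial counterpart sits at the mouth of the exit tunnel for new proteins, came next with 816.1 and rank 231, and with 399.6 and 424.1 in the replicates.

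From mRpL35 to mRpS2 the signal fell in smaller steps. mRpL35 had 445.5 in the main list, with 197.8 in replicate 1 and 255.4 in replicate 2. mRpL47 had 443.8, with 175.3 and 265.8. mRpL24 had 402.0, with 241.0 and 160.6. mRpL34 had 358.8, with 111.9 and 233.2, and mRpS18C had 320.7, with 135.3 and 190.0. mRpL20 had 263.1, with 124.9 and 145.2, and mRpS2 had 251.8, with 80.2 and 151.7. Every one of these 11 members above 200 was past the threshold in both replicates' own lists as well.

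The 14 weaker members were less evenly found. Their main signals were 163.6 for mRpL37, 128.2 for mRpS26, 120.7 for mRpL40, 120.4 for mRpS11, 119.0 for mRpL53, 102.6 for mRpL18 and 99.96 for mRpS24. The lowest were 98.9 for mRpL4, 95.4 for mRpS33, 89.1 for mRpL21, 87.6 for mRpL19, 84.1 for mRpS7, 79.8 for mRpS22 and 19.9 for mRpL2. Only 1 of the 14, mRpL40, was past the threshold in both replicates alone, with 54.2 and 79.8. Past it in replicate 1 alone were mRpL53 and mRpS22, and in replicate 2 alone mRpL18, mRpL37, mRpS11, mRpS26, mRpS33 and, at a different site, mRpL2. mRpL4, mRpL19, mRpL21, mRpS7 and mRpS24 passed in neither. All 14 weaker peaks had a width of 436 bp, and none of the 11 stronger ones did. As a share of the 25 member peaks this is 56%, near the 54.5% of the whole list. The width was not split by signal over the whole list, so these values cannot say whether the split is particular to the members.

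Over all members, replicate 1 alone gave 15 with a summit past its threshold, beside 26.2% of all genes, and replicate 2 alone gave 20, beside 28.6%. Both replicates gave 12. As shares of the members, 15 of 73 is 20.5% and 20 of 73 is 27.4%, so in each replicate alone the members stood below the share of all genes, and in the main list slightly above it. Which of the peaks are counted also moves their height against the list: the median member peak was 0.861 times the list median in the main list, 1.66 times in replicate 1 alone and 1.60 times in replicate 2 alone.

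In the ranked lists, without a threshold, most member peaks had a summit of each replicate nearby. The main list keeps peaks found in both replicates, so this is largely set by the choice of peaks. Of the 25 member peaks, 22 had a ranked summit of both replicates within 100 bp, and in 14 of those the replicate summits lay at most 20 bp apart. mRpL37 had none in replicate 1, and mRpL2 and mRpS24 had none in replicate 2. Across the 22 peaks the replicate signals had a Spearman rho of 0.864, given as a description since the peaks were chosen for being found in both. The median ratio of replicate 2 to replicate 1 was 1.19 at these peaks. Over the 6205 of 6747 main-list peaks where the ratio was formed it was 1.28. The lists have separate scales, so the ratio says nothing by itself of which replicate had more.

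**Figure D2:**
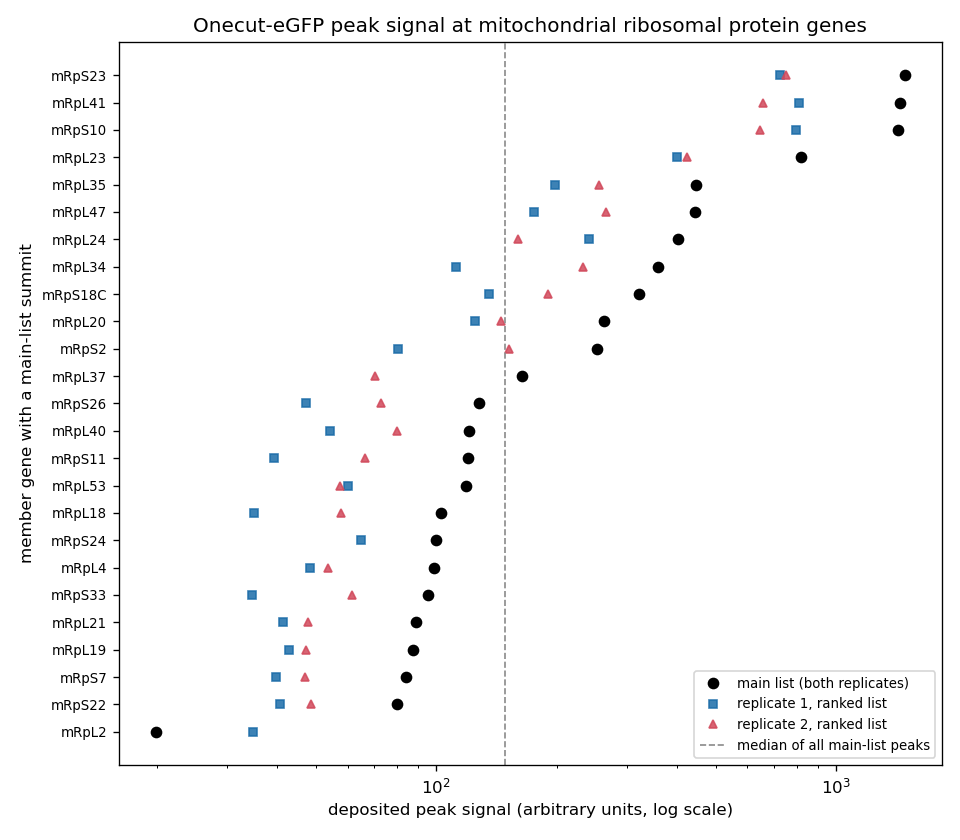
Deposited peak signal (x axis, log scale, arbitrary units) of the highest main-list peak of each of the 25 members (y axis), with the signal of the matching peak in the ranked list of each replicate and a dashed line at the median of all main-list peaks, 149.0. mRpS23, mRpL41 and mRpS10 lie at 1431.7 or more in the main list and at 647.1 or more in both replicates, and the members below 200 run down to mRpL2 at 19.9; the lists have separate scales.

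Nearly all member summits lay upstream of the member's own start. Positions are from the nearest annotated start of the member. Of the 25, 23 were upstream, with a median position of -152 bp and a range from -970 to 80 bp, and 11 lay from 100 to 200 bp upstream. Within 250 bp of the member's TSS were 18, another 4 were within 500 bp, and 3 were farther out. The only summits downstream were those of mRpL23 and mRpS11. That of mRpL23 lay 80 bp past the nearest of its 3 annotated starts and 106 bp past the outermost, and that of mRpS11 lay 5 bp in. The 3 farthest were mRpL34 at -970 bp, mRpL35 at -679 bp and mRpL2 at -653 bp.

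Among the other members above a signal of 200, mRpS18C had its summit 76 bp upstream of its start, mRpL47 143 bp, mRpL24 152 bp, mRpS2 172 bp and mRpL20 267 bp. Of the weaker members, mRpS33 (23 bp), mRpL53 (34 bp) and mRpL40 (80 bp) had it close upstream of the start. A cluster followed at mRpL19 (136 bp), mRpL4 (138 bp), mRpL18 (146 bp), mRpL37 (157 bp), mRpS7 (170 bp) and mRpS22 (176 bp). mRpS24 (236 bp), mRpL21 (261 bp) and mRpS26 (308 bp) lay farther out. Strong and weak peaks thus shared the same stretch of upstream sequence.

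The members stand close to other genes, and this decides how a summit can be read. A divergent protein-coding partner, one on the other strand that starts at most 1000 bp upstream, was present at 58 of 73 members (79.5%, Wilson interval 68.8 to 87.1). The same holds for 36.2% of all protein-coding genes and for 56 of 93 cytoplasmic ribosomal protein genes (60.2%). The starts of a member and its partner were a median of 283 bp apart, from 20 to 793 bp. Over the genome, genes in such pairs had summits more often than others: 36.2% of the 5052 genes with a divergent partner had a promoter summit, beside 16.1% of the 8893 without. Among the members the shares were 19 of 58 with a partner (32.8%, 22.1 to 45.6) and 3 of 15 without (20%, 7.05 to 45.2), near those of all genes of the same kind.

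For most paired members the summit was nearer to the partner. Of the 22 paired members with a summit, 14 had it between both starts, 6 inside the partner and 2 inside the member itself, and in 15 the partner's start was the nearer. In 17 it lay within 500 bp of both, so the list alone cannot assign it to either gene. Over all 25, the member's own TSS was the nearest annotated start in 10, namely mRpL4, mRpL19, mRpL23, mRpL40, mRpL41, mRpS7, mRpS11, mRpS22, mRpS33 and, at a start it shares with CG33155, mRpL53. Another gene's start lay within 500 bp in 19.

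The strongest summits illustrate the difference. At mRpS23 the summit was 396 bp upstream of the member and 96 bp upstream of CenG1A, which encodes a GTPase-activating protein, with 492 bp between the starts. At mRpS10 it lay 146 bp upstream of the member and 111 bp upstream of Art3, a gene for a protein arginine methyltransferase, near the middle of a space of 257 bp. At mRpL41, on 2R, it lay 136 bp upstream of the member and 626 bp from the partner CG8079, so here mRpL41 had the only start within 500 bp. mRpL4, on 2L, had the same arrangement with a signal of 98.9: its summit lay 138 bp upstream of its own start and 655 bp from CG4440. At mRpL24 the summit stood 66 bp from the start of betaggt-I, a subunit of a geranylgeranyl transferase, and at mRpS2 50 bp from that of Mon1, a gene of endosome maturation. At mRpL20 it was 132 bp upstream of Icmt, for a methyltransferase of prenylated proteins, and at mRpL47 it was 44 bp inside CG8176, whose start is also annotated as that of Kdm3, a histone demethylase gene. At mRpS18C it was 31 bp inside CG15535, and at mRpL23, on the member's side, 130 bp upstream of CG9004.

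Some partners also act in mitochondria. The summit counted for mRpL35 lay 226 bp downstream of the nearest annotated start of Mitofilin, whose protein shapes the inner mitochondrial membrane, and that of mRpL18 lay 126 bp inside Taz, for tafazzin, which remodels the mitochondrial lipid cardiolipin. Others are known for quite different work. The partner was Cdk1, the kinase that drives mitosis, at mRpS7 (summit 230 bp from its start), AGO1, of the microRNA pathway, at mRpL53 (136 bp), and Apc2, a negative regulator of Wnt signalling, at mRpS24 (185 bp). It was rept, a chromatin remodelling ATPase, at mRpL21 (18 bp). At mRpL34 the summit lay in an intron of Dg, which encodes dystroglycan, 586 bp inside that gene, and no start of any protein-coding gene was within 500 bp. mRpL53 shares its annotated start with CG33155, so those genes cannot be told apart here.

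**Figure D3:**
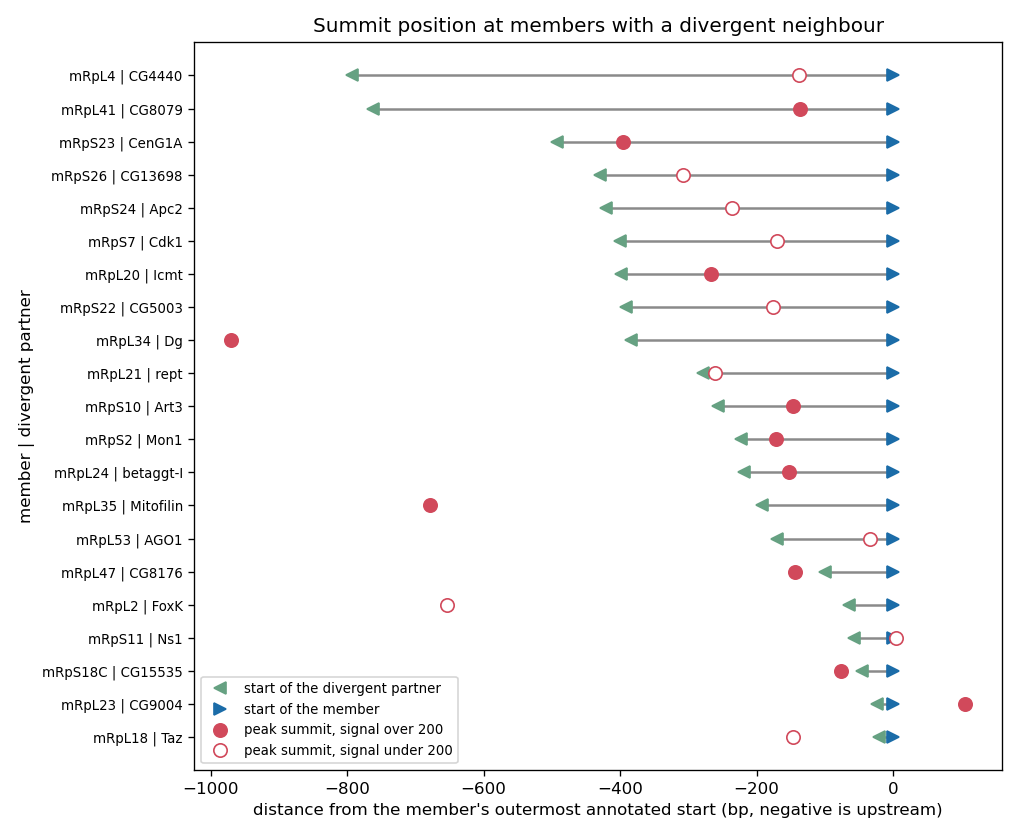
Position of the highest main-list summit (circles) at 21 of the 22 members with a divergent partner, as distance from the member's outermost start (x axis, bp); triangles mark that start and the nearest start of the partner, and circles are filled where the signal was over 200. In 13 of the 21 rows the circle lies between the starts, and at mRpL34, mRpL35 and mRpL2 it lies well beyond the partner's start.

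The edges of the rule matter for a few genes. mRpL2, which encodes a protein at the catalytic centre of the large subunit, had the weakest signal of all 25 and an IDR of 0.00934, just inside the threshold. That peak lay 653 bp upstream and 217 bp downstream of the nearest annotated start of FoxK, a forkhead factor gene. A stronger peak at its own start, 9 bp downstream with a signal of 101.3, was in the pooled list and in replicate 2 but not in the main list. Just outside the threshold were the ranked peaks of mRpS6, with IDR values of 0.0103 and 0.0134, of mRpL48, with 0.0131, and of mRpL32, with 0.0133. Of these, mRpS6 and mRpL32 had a summit in another thresholded list, mRpS6 in the pooled list (signal 125.1, -126 bp) and in replicate 1 (55.1, -45 bp), and mRpL32 in the pooled list (88.5, -676 bp) and in replicate 2 (60.5, -676 bp). mRpS9, at 13391 bp the longest member, had one in replicate 2 alone, 7001 bp into the gene with a signal of 92.1 and 156 bp from the start of the gene wtrw. Upstream, the member just inside the limit of 1000 bp was mRpL34 at -970 bp, and the nearest outside it was mRpS21, with a summit of signal 124.4 at 1252 bp that lay 204 bp from the start of Droj2. In all, 7 more members had a main-list summit between 1000 and 2000 bp upstream.

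No thresholded list held a summit for 45 of the 73 members, and 11 had none in any list, ranked lists included. Of those 45, the highest signals in the ranked list of both replicates were 74.6 at mRpL48, 73.6 at mRpL17, 69.3 at mRpS28, 68.9 at mRpL33 and 64.9 at mRpL52. All of these exceed the median of 40.2 in that ranked list, which is largely set by picking the highest. The median of the promoter peaks in that list was 61.3. Without any threshold, 46 members had a summit in replicate 1 (63.0%, beside 59.0% of all genes) and 58 in replicate 2 (79.5%, beside 60.8%).

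No member on the X chromosome had a main-list summit. The count was 0 of 11. This allows a share of up to 27.3% by the limit of 3 counts, and the Wilson upper limit is 25.9%. A summit was present at 31.0% of all 2196 protein-coding genes on X, whatever their length. For genes of at most 2000 bp on all arms the share was 17.1%, which lies within those limits. For members of at most 2000 bp on all arms it was 35.7%, which lies above them. No share was formed for short genes on X. Beyond the window, mRpL22 and mRpL33 on X had main-list summits 1628 and 1892 bp upstream, with signals of 112.9 and 90.6. A divergent partner was annotated at 9 of those 11. Ranked summits were present at 3 of the 11 in replicate 1 and at 8 in replicate 2, with a highest signal of 49.4. On the other arms, 5 of 12 members on 2L had a main-list summit (beside 29.8% of all genes on that arm), 4 of 12 on 2R (30.1%), 5 of 17 on 3L (32.0%) and 11 of 21 on 3R (32.9%). This split was seen after the data were examined and was not tested.

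Cores of the Onecut type lay under a minority of the member summits. ATCGAT or ATTGAT, searched on both strands within 50 bp of the summit, was present in 5 of 25 windows (20%). This stands beside 36.6% of 2980 promoter summits and 38.2% of all main-list summits. The Wilson interval of a count of 5 of 25, 8.86 to 39.1%, takes in both of these shares. All 5 held ATCGAT, which alone was found in 22.7% of promoter summit windows, and 0 of 25 held ATTGAT, found in 16.2%. The windows with ATCGAT belonged to mRpL34, mRpL35, mRpL40, mRpS18C and mRpS24, and in mRpS18C there were 2 copies. The distance from the summit to the centre of the nearest copy was 9.5 bp at mRpL35, 16.5 bp at mRpS18C, 20.5 bp at mRpL34, 37.5 bp at mRpL40 and 41.5 bp at mRpS24.

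Peaks with a core had the higher median signal, but the strongest member peaks had none. The 5 member peaks with a core had a median signal of 320.7, from 99.96 to 445.5, and the 20 without had a median of 124.3, from 19.9 to 1484. The ranges overlap, and the 4 strongest members (mRpS23, mRpL41, mRpS10 and mRpL23) were all among those without. Over all promoter summits the medians were 208.8 for 1092 windows with a core and 142.8 for 1888 without. The element ACACTG or ACAGTG, looked for only after it was seen in these sequences, was present in 4 of 25 member windows (16.0%, at mRpS23, mRpL21, mRpL53 and mRpS11), beside 14.7% of promoter summit windows.

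Elements known from housekeeping promoters of the fly were found in the promoters of some members. The DNA replication-related element (DRE), TATCGATA, contains the core ATCGAT and is bound by the factor DREF. In promoters taken from 250 bases before to 50 after the start it was present at 15 of 73 members (20.5%), beside 9.36% of all protein-coding genes and 30.1% of the cytoplasmic ribosomal protein genes. Within 50 bp of the member summits, a shorter stretch than these promoters, 0 of 25 windows held it, beside 3.83% of promoter summit windows. With 25 windows, a count of 0 cannot be told from a share that low. The shares in promoters and in summit windows cannot be compared directly, because their lengths differ. Of the 15, only 4 had a main-list summit, namely mRpL4, mRpL19, mRpL20 and mRpS23. In mRpL19 the element lay about 114 bp from the summit, in mRpL4 160 bp, in mRpS23 190 and 390 bp for its 2 copies, and in mRpL20 260 bp. The other 11 were mRpL3, mRpL10, mRpL12, mRpL16, mRpL17, mRpL22, mRpL32, mRpL39, mRpS18B, mRpS25 and mRpS29.

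Motif 1, GGTCACACT, which is bound by the zinc finger factor M1BP, was in the promoters of 8 members (11.0%), beside 6.05% of all genes. None of the 8 had a main-list summit: they were mRpL13, mRpL22, mRpL27, mRpL48, mRpL55, mRpS16, mRpS21 and mRpS30. The element was in 0 of 25 promoters of members with a summit and in 8 of 48 of those without (16.7%). ATCGAT by itself was in 9 of 25 and 18 of 48 (36.0% and 37.5%), so it did not separate members with a summit from those without. GAGAG, the element of GAGA factor, was in 0 of 25 member summit windows, beside 15.2% of promoter summit windows. A match of letters is not a bound site, and these counts were not tested.

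**Figure D4:**
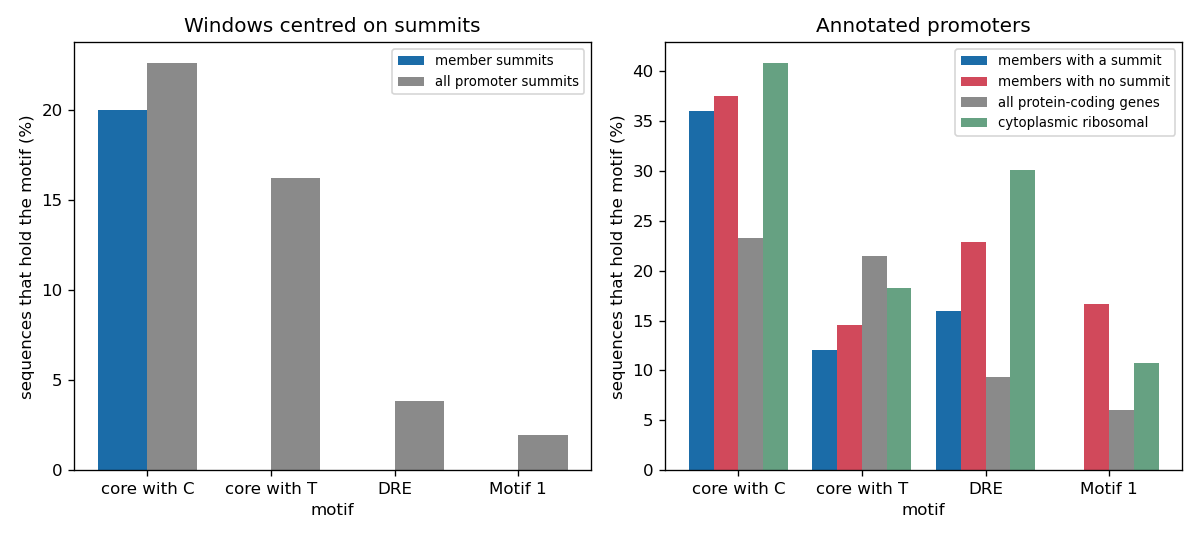
Share of sequences (y axis, %) that hold a motif, within 50 bp of summits (left) and in promoters of 300 bp (right); core with C is ATCGAT, core with T is ATTGAT, DRE the DNA replication-related element and Motif 1 the M1BP element. Under member summits the core with C stands at 20% and the other motifs at 0. In member promoters, which are longer than the summit windows, the DRE reaches 16.0% with a summit and 22.9% without.

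Other nuclear genes for the expression of mitochondrial DNA were described from a list of 26 symbols, of which 25 were found in the annotation. A main-list summit was present at 5 of 25 (20%, Wilson interval 8.86 to 39.1), again beside 31.3% of all genes, and each lay within 500 bp of a start. Lon, a protease of the mitochondrial matrix, had a signal of 702.2 at -98 bp. mtSSB, the protein that binds single-stranded mitochondrial DNA, had 479.1 at -317 bp, and mtTFB2, a transcription factor of the mitochondrial polymerase, had 216.0 at -23 bp. mIF2, an initiation factor of mitochondrial translation, had 171.2 at -430 bp, and mTerf5, of the family of termination factors, had 87.9 at 40 bp. Lon, mtTFB2 and mTerf5 have a divergent partner (PIG-F, CG11722 and Non3), so their summits may belong to either gene of the pair. The list also holds tko and bonsai, which encode small subunit proteins of the mitochondrial ribosome under names outside the symbol rule, and neither had a summit. TFAM, which packages mitochondrial DNA, the polymerase gene PolrMT and the elongation factor genes mEFTu1, mEFTu2, mEFTs and mEFG1 had none either.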

How the data were processed

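Onecut-eGFP was mapped by chromatin immunoprecipitation and sequencing in 2 replicates labelled as biological. The data are the authors' peak lists in dm6 coordinates, made with a control alignment beside those of the replicates, per the file headers. No source used here names the aligner or the peak caller or gives the reads per library. Depth and its precision are therefore unknown, and Wilson intervals cover counting error only. The deposited signal of each peak (arbitrary scale) was used within 1 list. Column 12 of the ranked lists, as deposited, is a -log10 IDR, which was 2.00 or more for every thresholded peak.

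The main list is the conservative list of both replicates, with 6755 peaks, of which 8 lie off the arms and were left out. Replicate 1 alone had 5133 thresholded and 31012 ranked peaks, and replicate 2 had 6023 and 38160. Summits were assigned to protein-coding genes of Ensembl release 115 with Python 3.11.15, and sequence was read from the Release 6 assembly. The assignment was tested on placed summits. All genes with a main-list summit are named; of those with none in a thresholded list, the 5 highest are. Motifs were matched exactly on both strands. Intervals came from SciPy 1.17.1.

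The members, lists and motifs were chosen with earlier results of these data known. No test was run, because the rule for this group reads the same summits that would be tested. Alternatives were each replicate's list, the pooled list, stricter and no thresholds, and other windows. Signal tracks were not analysed here. The divergent partner of mRpL37 is not reported here.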

Additional observations from a re-analysis of the deposited data

How the results depend on the processing

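Of 31 alternatives, 20 left a count or ratio within 1.5 times of the main one, or the share of windows with a core within the 95% Wilson interval of the main share, and 11 did not. The count of members with a summit, 25 in the main list, was 15 to 20 in the list of 1 replicate alone, 13 at an IDR of at most 0.001, 12 in the stronger 50% of peaks and 52 in the ranked list with no threshold. The count with a promoter summit, 22 in the main list, was 13 to 18 in 1 replicate alone, 11 at the stricter IDR and 10 in the stronger 50%. In both cases the lower end is the list without replicate 2. The median member signal as a ratio to the list median, 0.861 in the main list, was 1.60 to 1.66 in 1 replicate alone, 1.82 at the stricter IDR and 1.71 in the stronger 50%, so it stood above 1 wherever the list held fewer of the weaker members. The share of summit windows with ATCGAT or ATTGAT ran from 12% (windows of 51 bp) to 30.8% (stricter IDR) over its alternatives. Members with a divergent partner were 53 within 500 bp and 59 within 2000 bp.

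No paired analysis was possible because the design has 1 group and no result comes from a test. The limits are that 2 replicates of 1 strain give no measure of variation between strains or of the fusion itself, that read depth is unknown, and that a summit in a shared start region belongs to either gene.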
